A study of Mus musculus with 9 samples.

Results

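The MiT/TFE family consists of 4 genes, Mitf, Tfe3, Tfeb and Tfec, and was taken as the rows of the deposited expression table that carry those gene names. All 4 were found among the 54532 genes of the table, and all 4 are annotated as protein coding. RNA sequencing had been done on 9 aortas, 3 in each of 3 groups. The HFD_IO group were Apoe-/- mice on a high fat diet that also received ammonium iron(III) citrate by intraperitoneal injection, the HFD group were Apoe-/- mice on the high fat diet without the iron salt, and the CD group were Apoe-/- mice on chow. Mice were 6 to 8 weeks old at the start and stayed on the regimen for 24 weeks. All 9 therefore lack a working Apoe gene, which carries lipoprotein lipid to its receptors, and there is no group with intact Apoe and none with iron on chow. The iron salt came as an injection and no injected control is described.

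The family members are basic helix-loop-helix leucine zipper transcription factors that bind E-boxes as homodimers or as heterodimers with one another. TFEB, TFE3 and MITF, in work mostly on human cells, are held in the cytoplasm when the kinase complex mTORC1 phosphorylates them at the lysosome surface, and enter the nucleus when nutrients run short or lysosomes are damaged. There they switch on the CLEAR network, the genes for lysosomal enzymes, the proton pump and parts of the autophagy machinery. Mitf is also the master factor of pigment cells and acts in osteoclasts and mast cells, and Tfec is known mainly from the macrophage lineage. Messenger RNA shows how much of each factor could be made and not where the protein sits in the cell.

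The 9 libraries held between 16660963 and 18308450 reads assigned to genes, read back from the deposited values. Values are FPKM, reads per kilobase of gene length divided by a depth term. That term was proportional to size factors, the median over genes of a library's reads relative to all libraries, and not to read totals. It was 0.895 times the reads assigned to genes in HFD_3 and 1.10 times in CD_1. Levels set side by side between genes rest on the gene length, the sum of all annotated exons. Smooth muscle markers were abundant in every aorta, with a summed level of 2581 to 4400 FPKM in HFD_IO, 7196 to 8384 FPKM in HFD and 5545 to 6223 FPKM in CD libraries. Apoe itself was listed at 17.5 to 21.9 FPKM in HFD_IO, 9.73 to 15.1 FPKM in HFD and 10.9 to 14.5 FPKM in CD libraries. HFD_3 had the lowest macrophage marker level of the HFD libraries, and calls and counts that change without it are given so. Libraries are called by their column names because the sample labels do not repeat those numbers, and nothing says that the 3 aortas of a group were handled apart, so p-values measure the spread between these samples.

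Mitf spans chr6:97807052-98021349 on the plus strand of GRCm38, Tfec chr6:16833373-16898441 on the minus strand, Tfeb chr17:47737030-47792419 on the plus strand and Tfe3 chrX:7762560-7775202 on the plus strand. Their exons sum to 6196 bases for Mitf, 9261 for Tfe3, 5669 for Tfeb and 5594 for Tfec. The only annotated gene overlapping one of them is Gm15531, a processed pseudogene inside Mitf on the other strand that touches 0 Mitf exons and was listed at 0 FPKM in every library. GENCODE lists 8 transcripts of Mitf, 14 of Tfe3, 15 of Tfeb and 5 of Tfec, and the gene-level values sum over all of them.

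The windows of 3 promoters are shown because they belong to the members that moved most, Mitf and Tfec. They are RefSeq sequences of GRCm38.p6, each from 250 bases before a transcription start to 50 bases after it, read 5′ to 3′ on the gene's strand. The first Mitf window is chr6:97806808-97807107, on the plus strand, at the upstream end of the gene. The last of its 3 windows is chr6:97991533-97991832, also on the plus strand, and its capitals mark TGACGTCA, the cyclic AMP response element, starting 153 bases before the start site. The Tfec window is chr6:16898392-16898691 on the minus strand, and it holds no capitals.
Mitf, first window: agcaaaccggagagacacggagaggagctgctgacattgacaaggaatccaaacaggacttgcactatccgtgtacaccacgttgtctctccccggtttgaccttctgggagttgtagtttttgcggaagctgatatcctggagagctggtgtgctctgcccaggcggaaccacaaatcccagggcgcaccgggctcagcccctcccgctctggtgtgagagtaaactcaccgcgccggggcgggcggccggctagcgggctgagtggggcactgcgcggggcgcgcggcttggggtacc
Mitf, last window: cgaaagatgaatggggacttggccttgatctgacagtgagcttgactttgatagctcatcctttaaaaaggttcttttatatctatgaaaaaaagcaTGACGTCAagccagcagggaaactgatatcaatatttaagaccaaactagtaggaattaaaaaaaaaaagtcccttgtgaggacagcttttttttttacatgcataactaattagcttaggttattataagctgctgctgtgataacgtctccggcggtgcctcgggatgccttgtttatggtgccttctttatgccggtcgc
Tfec: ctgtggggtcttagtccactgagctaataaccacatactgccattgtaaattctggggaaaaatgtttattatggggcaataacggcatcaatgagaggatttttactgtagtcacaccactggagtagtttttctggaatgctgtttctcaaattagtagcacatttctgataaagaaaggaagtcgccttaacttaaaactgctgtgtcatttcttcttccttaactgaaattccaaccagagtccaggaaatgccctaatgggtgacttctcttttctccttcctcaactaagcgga

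RefSeq lists 9 promoter windows for the 4 genes, 3 for Mitf, 2 for Tfe3, 3 for Tfeb and 1 for Tfec. Searched on both strands, CACGTG (the palindromic E-box), the longer GTCACGTG that contains it, and TCATGTG were found in 0 of the 4 members. TGACGTCA was found in 1, Mitf. Over the promoters of all 27025 genes listed, 8.09% held CACGTG, 2.55% GTCACGTG, 4.31% TCATGTG and 2.03% TGACGTCA. Among the 9813 of them that were tested for expression, as the 4 members were, the shares were 11.7%, 4.73%, 2.71% and 3.40% in that order. The last Mitf window was 40.0% G and C and the Tfec window 40.3%, against 62.7% in the first Mitf window.

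Mitf was the member with the clearest iron-associated difference. It was measured at 6.41, 7.62 and 5.93 FPKM in HFD_IO_1, HFD_IO_2 and HFD_IO_3, at 3.44, 3.49 and 3.54 FPKM in HFD, and at 2.74, 2.70 and 3.30 FPKM in CD. Every HFD_IO library lay above every HFD and CD library, and the HFD libraries lay above the CD libraries by a narrow margin. The means were 6.65 ± 0.869 FPKM in HFD_IO, 3.49 ± 0.0479 FPKM in HFD and 2.91 ± 0.335 FPKM in CD (SD, n = 3 each), and the HFD_IO mean was 1.91 times the HFD mean and 2.29 times the CD mean. On the log2(FPKM + 1) scale Mitf rose by 0.76 in HFD_IO against HFD (SE 0.11, limma adjusted p = 0.0023) and by 0.97 in HFD_IO against CD (SE 0.11, adjusted p = 0.000228). In HFD against CD the difference was 0.20 (SE 0.11, adjusted p = 0.164), which did not pass the threshold of 0.05. Of all 13883 genes tested, 6.53% had a larger increase than Mitf in HFD_IO against HFD.

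**Figure D1:**
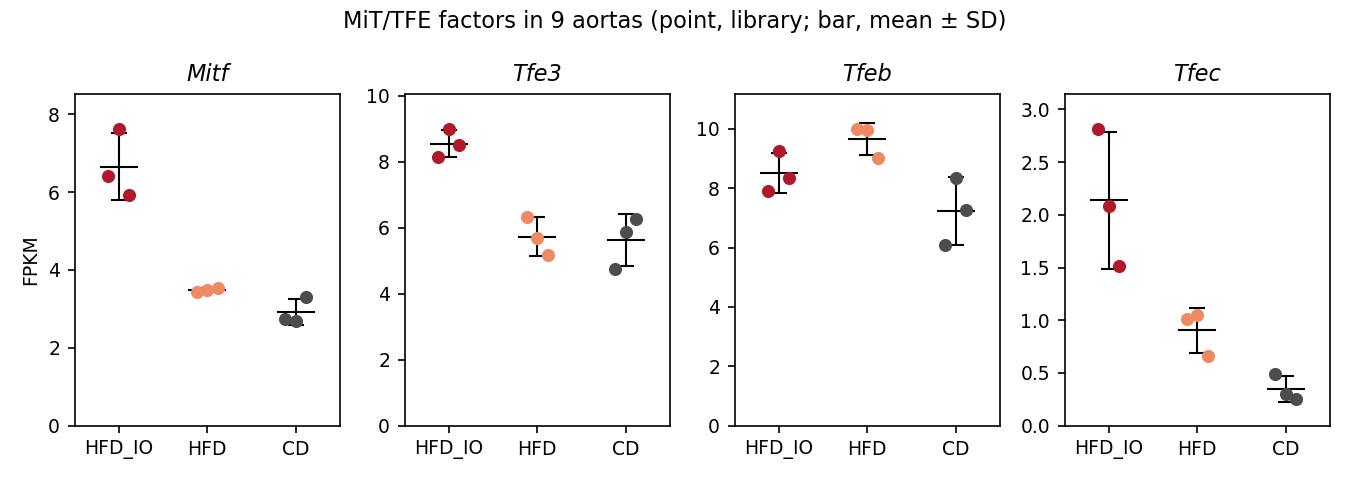
FPKM of Mitf, Tfe3, Tfeb and Tfec (vertical axes, each from 0) in the 3 HFD_IO, 3 HFD and 3 CD libraries; points are libraries, and bars the mean and SD. Mitf, Tfe3 and Tfec lie higher in all 3 HFD_IO libraries than in any other, while Tfeb is highest in HFD.

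Tfe3, whose product shares many target genes with Tfeb, was measured at 8.15, 8.99 and 8.50 FPKM in HFD_IO, against 6.34, 5.68 and 5.18 FPKM in HFD and 4.73, 5.86 and 6.26 FPKM in CD. The HFD_IO libraries lay above all others, and the HFD and CD libraries overlapped. The means were 8.55 ± 0.419 FPKM in HFD_IO, 5.73 ± 0.582 FPKM in HFD and 5.62 ± 0.793 FPKM in CD (SD, n = 3 each). Tfe3 rose by 0.51 in HFD_IO against HFD (SE 0.11, adjusted p = 0.0118) and by 0.53 in HFD_IO against CD (SE 0.11, adjusted p = 0.00636), a level 1.49 and 1.52 times as high. Rescaled to TPM, the HFD_IO against CD difference fell to 0.36 with an adjusted p = 0.121. In HFD against CD it was 0.028 (SE 0.11, adjusted p = 0.861). Tfe3 is in the fifth of genes with the longest exon sum, whose median change in HFD_IO against HFD was 0.19, and with each library's trend on gene length removed Tfe3 still rose by 0.35 there (adjusted p = 0.03).

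Tfec was the least abundant member and had the largest ratio between groups. It was measured at 2.81, 2.08 and 1.52 FPKM in HFD_IO, 1.01, 1.05 and 0.660 FPKM in HFD and 0.486, 0.304 and 0.255 FPKM in CD, which rest on 291, 203 and 150 reads in HFD_IO, 99, 98 and 60 in HFD and 50, 30 and 26 in CD. The 3 groups did not overlap, with HFD_IO highest and CD lowest. The means were 2.14 ± 0.649 FPKM in HFD_IO, 0.906 ± 0.214 FPKM in HFD and 0.348 ± 0.122 FPKM in CD (SD, n = 3 each), so the HFD_IO mean was 2.36 times the HFD mean and 6.14 times the CD mean. Tfec rose by 0.70 in HFD_IO against HFD (SE 0.18, adjusted p = 0.0186) and by 1.20 in HFD_IO against CD (SE 0.18, adjusted p = 0.000984). The first of these calls was lost without HFD_3 (0.61, adjusted p = 0.0673), without HFD_IO_1 (0.55, adjusted p = 0.0621) and without HFD_IO_2 (0.71, adjusted p = 0.053).

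In HFD against CD the Tfec difference was 0.50 (SE 0.18, adjusted p = 0.0507), just outside the threshold, with mean levels 2.60 times apart. A pseudocount of 1 compresses changes at such low levels: with a pseudocount of 0.1 the difference was 1.18 (adjusted p = 0.0224), and with limma's voom on the recovered reads it was 1.39 (adjusted p = 0.0226). Without CD_1 it was 0.57 (adjusted p = 0.0451). It also passed at 0.50 without HFD_IO_1 (adjusted p = 0.0389) and without HFD_IO_3 (adjusted p = 0.0387), libraries outside that comparison which set the shared spread. Tfec passed the filter of 1 FPKM in at least 3 libraries through HFD_1, HFD_2 and the 3 HFD_IO libraries, so that its place among the genes tested depended on the groups where it is high.

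Tfeb, the best studied inducer of lysosome genes, followed another order. It was measured at 7.92, 9.26 and 8.35 FPKM in HFD_IO, 9.99, 9.96 and 9.03 FPKM in HFD and 6.07, 8.34 and 7.28 FPKM in CD. HFD libraries were above all CD libraries, while HFD_IO overlapped with both. The means were 8.51 ± 0.683 FPKM in HFD_IO, 9.66 ± 0.544 FPKM in HFD and 7.23 ± 1.14 FPKM in CD (SD, n = 3 each). The difference was -0.17 in HFD_IO against HFD (SE 0.12, adjusted p = 0.308) and 0.22 in HFD_IO against CD (SE 0.12, adjusted p = 0.191). In HFD against CD it rose by 0.38 (SE 0.12, adjusted p = 0.0292), 1.34 times the chow level. That call was lost without CD_1 (0.28, adjusted p = 0.0534), without CD_3 (0.39, adjusted p = 0.0717), without HFD_1 (0.36, adjusted p = 0.0727) and without HFD_2 (0.36, adjusted p = 0.0841). After rescaling to TPM, which moved the median of all genes to -0.30, Tfeb was at 0.032 (adjusted p = 0.886), or 0.33 above that median.

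Read as a family, 3 of the 4 members rose and 0 fell in HFD_IO against HFD, where 14.1% of the 13883 genes tested were called higher and 14.5% lower. In HFD_IO against CD, 3 of 4 rose and 0 fell, beside 17.5% of all genes higher and 15% lower. In HFD against CD, 1 of 4 rose, Tfeb, and 0 fell, beside 21.8% of all genes higher and 17.6% lower. Members whose libraries lay wholly above those of the other group numbered 3 in HFD_IO against HFD, 3 in HFD_IO against CD and 3 in HFD against CD, where the shares over all genes were 24.1%, 24.3% and 28.2%. The comparisons share libraries pairwise and are not independent of one another.

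**Figure D2:**
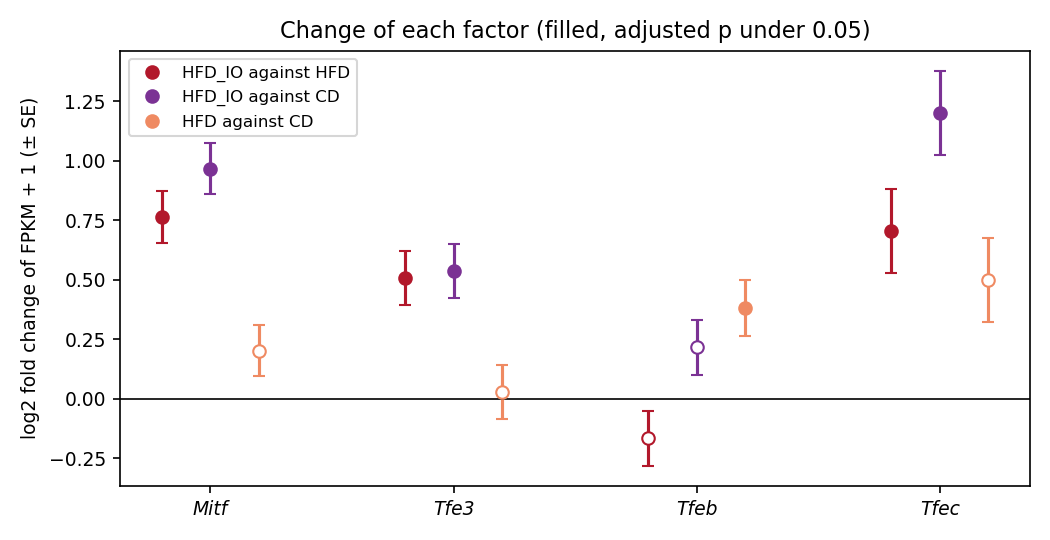
Change of each member on the log2(FPKM + 1) scale with its SE, in HFD_IO against HFD, HFD_IO against CD and HFD against CD; filled points have a limma adjusted p under 0.05. Mitf, Tfe3 and Tfec are filled and above 0 in both comparisons of HFD_IO, and Tfeb is filled in HFD against CD alone.

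Because FPKM is per length, the make-up of the family can be read within a library. The summed level of the 4 factors was 25.8 ± 1.88 FPKM in HFD_IO, 19.8 ± 1.23 FPKM in HFD and 16.1 ± 1.80 FPKM in CD (SD, n = 3 each). Tfeb made up 32.9 ± 1.54% of it in HFD_IO, 48.8 ± 0.672% in HFD and 44.8 ± 3.23% in CD, and Tfe3 made up 33.1 ± 1.61%, 28.9 ± 1.37% and 34.8 ± 1.59% in the same order. Mitf made up 25.7 ± 1.46% in HFD_IO, 17.7 ± 1.37% in HFD and 18.2 ± 2.15% in CD. Tfec made up 8.27 ± 2.54% in HFD_IO, 4.55 ± 0.849% in HFD and 2.24 ± 1.07% in CD. By FPKM, Tfeb was thus the most abundant member in HFD and CD, while in HFD_IO Tfe3 and Tfeb stood within their spread of each other. That order rests on dividing by the exon sums, 9261 bases for Tfe3 and 5669 for Tfeb. In reads, CD_1, CD_2 and CD_3 held 806, 957 and 1056 for Tfe3, against 633, 834 and 751 for Tfeb. HFD_1, HFD_2 and HFD_3 held 1027, 879 and 779 for Tfe3, against 991, 944 and 832 for Tfeb.

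The ratio of Tfe3 to Tfeb was 0.971 to 1.03 in the HFD_IO libraries, against 0.570 to 0.634 in HFD and 0.702 to 0.861 in CD libraries. The ratio of Mitf to Tfeb was 0.710 to 0.823 in HFD_IO, against 0.344 to 0.391 in HFD and 0.324 to 0.453 in CD. That of Tfec to Tfeb was 0.182 to 0.355 in HFD_IO, 0.0731 to 0.105 in HFD and 0.0351 to 0.0800 in CD. For all 3 ratios the HFD_IO libraries lay above every other library. Ratios within a library do not depend on how libraries are scaled to one another. They can still carry a trend of the libraries on gene length. Of 5 classes by exon sum, Tfe3 is in class 5, the longest, and Mitf, Tfeb and Tfec are in class 4. The median changes of classes 4 and 5 were 0.077 and 0.19 in HFD_IO against HFD. They were -0.057 and -0.21 in HFD against CD, and -0.018 and -0.050 in HFD_IO against CD. The part of this trend in the Tfe3 ratio and in the shares was not tested. The difference between members was described and not tested.

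**Figure D3:**
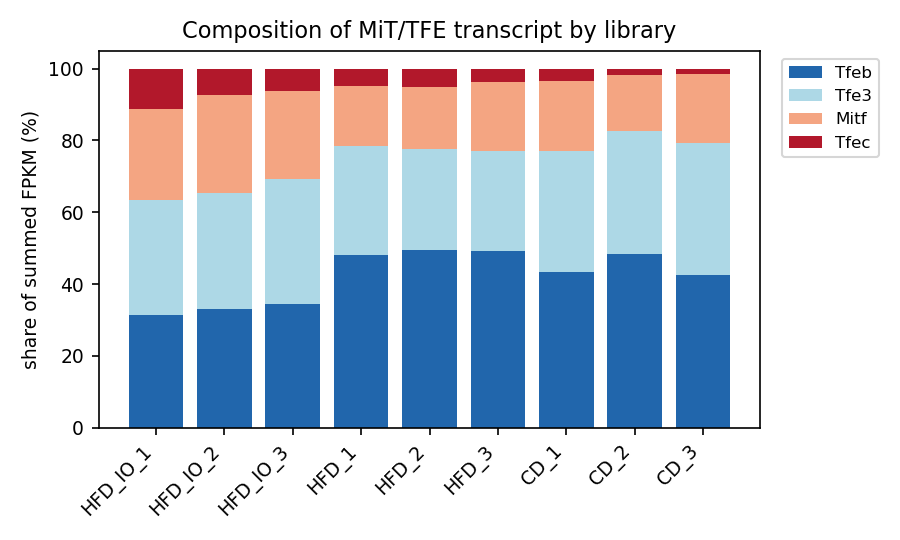
Share (%) of each member in the summed FPKM of the 4 factors, as 1 stacked bar per library, HFD_IO, then HFD, then CD. Tfeb takes 32.9% on average in HFD_IO, against 48.8% in HFD and 44.8% in CD, with larger Mitf and Tfec bands in HFD_IO.

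Genes for macrophage identity moved in the same samples. The summed level of 16 macrophage markers was 7216, 8954 and 5226 FPKM in HFD_IO, 5347, 5020 and 3250 FPKM in HFD and 764, 698 and 689 FPKM in CD. Of the 16 markers, 11 rose in HFD_IO against HFD with a median change of 0.82, 14 rose in HFD_IO against CD with a median of 2.69 and 13 rose in HFD against CD with a median of 1.62. These were 68.75%, 87.5% and 81.25%, beside 14.1%, 17.5% and 21.8% of all genes tested. In these 3 comparisons 0 of the 16 fell, except that 1 fell in HFD against CD without CD_1, under TPM, with quantile normalization and with plain library totals. The 11 became 7 at fewest when a library was left out, and moved by over 1.5 times without HFD_3 and without HFD_IO_2. Cd68, a lysosomal membrane protein of macrophages, was at 419.9, 382 and 338 FPKM in HFD_IO, 149, 134 and 99.9 FPKM in HFD and 22.9, 21.3 and 24.3 FPKM in CD. In whole aorta, more or fewer cells of a type and more or less RNA per cell cannot be told apart. The part of macrophage content in the changes of the family was not tested.

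**Figure D4:**
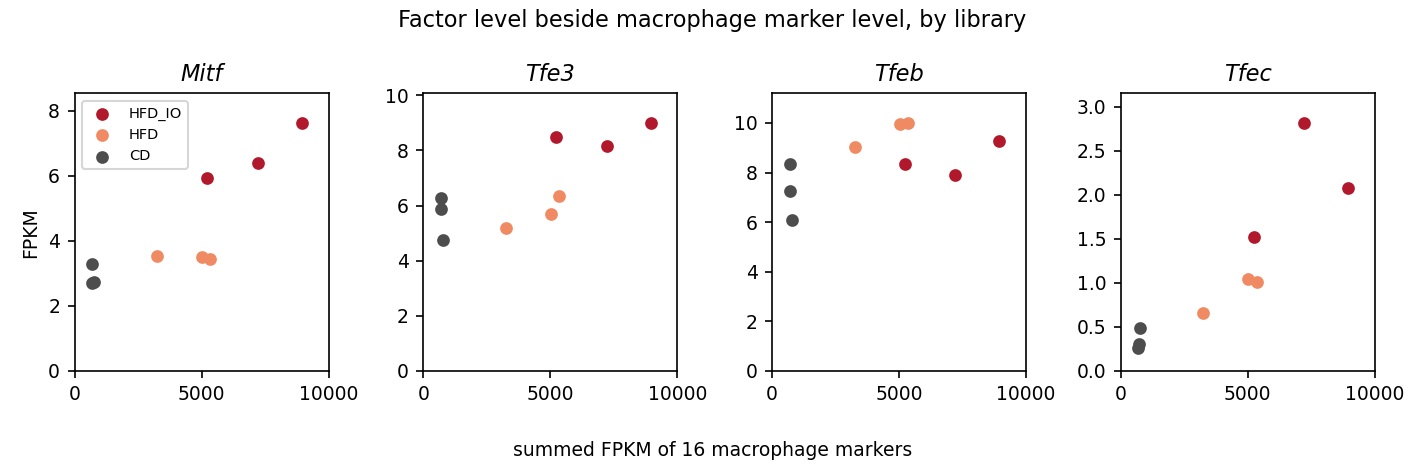
FPKM of each member (vertical) against the summed FPKM of 16 macrophage markers (horizontal), 1 point per library, coloured by group. The marker sum is 5226 to 8954 FPKM in HFD_IO, 3250 to 5347 FPKM in HFD and 689 to 764 FPKM in CD libraries, so 1 HFD_IO library lies within the HFD range on the horizontal axis.

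The other cell types in which Mitf is known to act were checked by their markers. Melanocyte markers were under 1 FPKM in all libraries for 8 of 8 genes in HFD_IO, 6 of 8 in HFD and 8 of 8 in CD, and their sum was 1.06 to 1.54 FPKM in HFD_IO, 1.83 to 3.86 FPKM in HFD and 1.44 to 1.53 FPKM in CD. Mlana, a melanosome protein, averaged 0.297 FPKM in HFD_IO, 1.40 FPKM in HFD and 0.415 FPKM in CD; it was the only one of the 8 to pass the filter, through the 3 HFD libraries, and was named after its values were seen. The summed level of 10 mast cell markers was 27.6 to 57.0 FPKM in HFD_IO, 54.5 to 86.0 FPKM in HFD and 32.8 to 36.3 FPKM in CD. Of the 7 of them tested, 3 were lower in HFD_IO against HFD (42.9%, beside 14.5% of all genes) and 0 higher. The 3 became 0 at fewest when a library was left out, with over 1.5-fold changes without HFD_2, HFD_3, HFD_IO_1 or HFD_IO_3. In HFD against CD, 4 were higher (57.1%, beside 21.8%), Cpa3, Tpsb2, Mcpt4 and Cma1, and 1 was lower (14.3%, beside 17.6%), Gata2. In HFD_IO against CD, 0 were higher and 1 was lower (14.3%, beside 15.0%). Kit, the receptor of stem cell factor, averaged 0.836 FPKM in HFD_IO, 0.964 FPKM in HFD and 0.703 FPKM in CD. The sum of 10 osteoclast genes known as MITF and TFE3 targets was 545, 472 and 385 FPKM in HFD_IO, 239, 220 and 180 FPKM in HFD and 66.2, 64.8 and 61.5 FPKM in CD. Of the 8 of them tested, 4 rose in HFD_IO against HFD, 7 in HFD_IO against CD and 6 in HFD against CD. These were 50%, 87.5% and 75%, beside 14.1%, 17.5% and 21.8% of all genes tested. Ctsk, Clcn7 and Atp6v0d2 are in this list and are counted again below among the CLEAR genes.

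The vessel wall and its surroundings differed as well. Over all genes tested, 14.1% were called higher and 14.5% lower in HFD_IO against HFD. The shares were 17.5% and 15.0% in HFD_IO against CD, and 21.8% and 17.6% in HFD against CD. Of 10 smooth muscle markers, 7 fell in HFD_IO against HFD (4 with no filter on low values) and 7 in HFD_IO against CD (4 without CD_3 or HFD_IO_2). Of 10 endothelial markers, 3 rose in HFD_IO against HFD (1 without HFD_3, HFD_IO_1 or HFD_IO_3), 5 fell and 1 rose in HFD_IO against CD (3 fell without CD_2 or HFD_IO_2), and 8 fell in HFD against CD (5 without CD_2). Of 8 fibroblast markers, 4 fell in HFD_IO against HFD (2 without HFD_3), 4 fell and 2 rose in HFD_IO against CD, and 3 rose in HFD against CD. Of 8 adipocyte markers, 3 fell in HFD_IO against HFD (6 without HFD_IO_2), and 4 rose in HFD against CD (2 without CD_2, CD_3 or HFD_3). Of the 6 lymphocyte markers tested, 0 passed in any of the 3 comparisons with limma, and 2 had an unadjusted p under 0.05 in HFD_IO against HFD, 0 in HFD_IO against CD and 1 in HFD against CD. Without HFD_1, 2 were called higher in HFD against CD and 2 lower in HFD_IO against HFD. The sum of the 8 lymphocyte markers listed was 71.4 FPKM in HFD_2, against 11.7 FPKM in HFD_1 and 12.1 FPKM in HFD_3. The part of these cell types in the changes of the family was not tested.

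The genes that regulate the family through the lysosome surface were taken next. Fnip2, partner of folliculin in the complex that activates RagC and RagD, is itself a target of the family, and it was measured at 17.8, 14.2 and 12.3 FPKM in HFD_IO, 5.78, 5.96 and 4.46 FPKM in HFD and 5.32, 6.42 and 5.24 FPKM in CD. It rose by 1.29 in HFD_IO against HFD (SE 0.15, adjusted p = 0.00122) and by 1.23 in HFD_IO against CD (adjusted p = 0.000379), while in HFD against CD the difference was -0.062 (adjusted p = 0.767). Fnip2 thus passed in the same comparisons as Mitf, Tfe3 and Tfec, both with HFD_IO. Its partner Flcn averaged 11.8, 12.5 and 10.7 FPKM in HFD_IO, HFD and CD and passed in none of the 3 comparisons.

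Rragd encodes the Rag GTPase through which mTORC1 acts on TFEB and is a strong family target. It was at 5.28, 4.39 and 2.84 FPKM in HFD_IO, 2.34, 1.82 and 1.29 FPKM in HFD and 0.673, 0.679 and 0.871 FPKM in CD. The 3 groups did not overlap, as for Tfec. Rragd rose by 0.86 in HFD_IO against HFD (adjusted p = 0.0136), 1.54 in HFD_IO against CD (adjusted p = 0.000498) and 0.68 in HFD against CD (adjusted p = 0.0258). The last of these calls was lost without any 1 of CD_1, CD_2, CD_3, HFD_1 and HFD_2, with adjusted p-values of 0.0506 to 0.0781, and also with no filter on low values (0.0675), under TPM (0.088) and with plain library totals (0.0529). Of 19 Rag, Ragulator and mTORC1 genes, 3 rose (15.8%, beside 14.1% of all genes) and 4 fell (21.1%, beside 14.5%) in HFD_IO against HFD. In HFD_IO against CD, 6 rose (31.6%, beside 17.5%) and 0 fell (beside 15.0%). In HFD against CD, 9 rose (47.4%, beside 21.8%) and 1 fell (5.26%, beside 17.6%). The 3 that rose with iron became 6 without CD_1. The 4 that fell became 1 at fewest, moving by over 1.5 times under TPM, with quantile normalization and with the length trend removed. The 9 became 3 under TPM. Rragc rose by 0.89 and Lamtor1, the anchor of Ragulator in the lysosomal membrane, by 0.87 in HFD_IO against CD.

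Mcoln1, the lysosomal calcium channel whose release of calcium lets calcineurin dephosphorylate TFEB, averaged 6.51 FPKM in HFD_IO, 5.79 FPKM in HFD and 4.46 FPKM in CD. It rose by 0.46 in HFD_IO against CD (adjusted p = 0.00707), a call lost after rescaling to TPM (adjusted p = 0.165). The difference in HFD_IO against HFD was 0.14 (adjusted p = 0.3). In HFD against CD, Mcoln1 rose by 0.31 (limma adjusted p = 0.0327). That call was lost without any 1 of the CD or HFD libraries, with adjusted p-values of 0.0523 to 0.0947. It was also lost with no filter on low values (0.0568), under TPM (0.931) and with plain library totals (0.243). Among 16 kinase, 14-3-3 and nuclear export genes, 2 rose (12.5%, beside 14.1% of all genes) and 1 fell in HFD_IO against HFD, and 4 rose and 0 fell in HFD_IO against CD (25.0%, beside 17.5%). Map4k3, a kinase that acts on TFEB in amino acid signalling, rose by 0.63 in HFD_IO against HFD (adjusted p = 0.00158), and Ywhag, a 14-3-3 protein that can retain the factors in the cytoplasm, by 0.93 in HFD_IO against CD.

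Zkscan3, a zinc finger repressor of lysosome and autophagy genes, was lower on the high fat diet. It was at 10.8, 7.95 and 9.09 FPKM in HFD_IO, 5.98, 5.25 and 7.00 FPKM in HFD and 16.8, 19.1 and 18.8 FPKM in CD. It fell by 1.45 in HFD against CD (adjusted p = 0.000351) and by 0.91 in HFD_IO against CD (adjusted p = 0.000887), and it rose by 0.54 in HFD_IO against HFD (adjusted p = 0.0167), a call lost without HFD_2 (adjusted p = 0.0577) and without HFD_IO_1 (adjusted p = 0.0568). These comparisons share libraries pairwise.

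Of 52 CLEAR genes tested, 24 rose and 2 fell in HFD_IO against HFD, 47 rose and 0 fell in HFD_IO against CD, and 43 rose and 1 fell in HFD against CD. Their median changes were 0.37, 1.16 and 0.81 in that order, while the medians over all genes tested were -4.2e-05, -0.012 and 0.058. The shares of CLEAR genes called higher were 46.2%, 90.4% and 82.7%, beside 14.1%, 17.5% and 21.8% of all genes tested. The shares called lower were 3.85%, 0% and 1.92%, beside 14.5%, 15.0% and 17.6%. The 24 became 15 without HFD_3 and 14 without HFD_IO_1. In HFD against CD, Tfeb was the only member called (limma adjusted p = 0.0292), and Tfec stood at 0.0507. The Tfeb call was lost in 8 of 20 alternatives, and Tfec passed in 8 of 19. Whether the family took part in the CLEAR changes was not tested. Many CLEAR genes are abundant in macrophages, whose markers moved in the same samples.

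**Figure D5:**
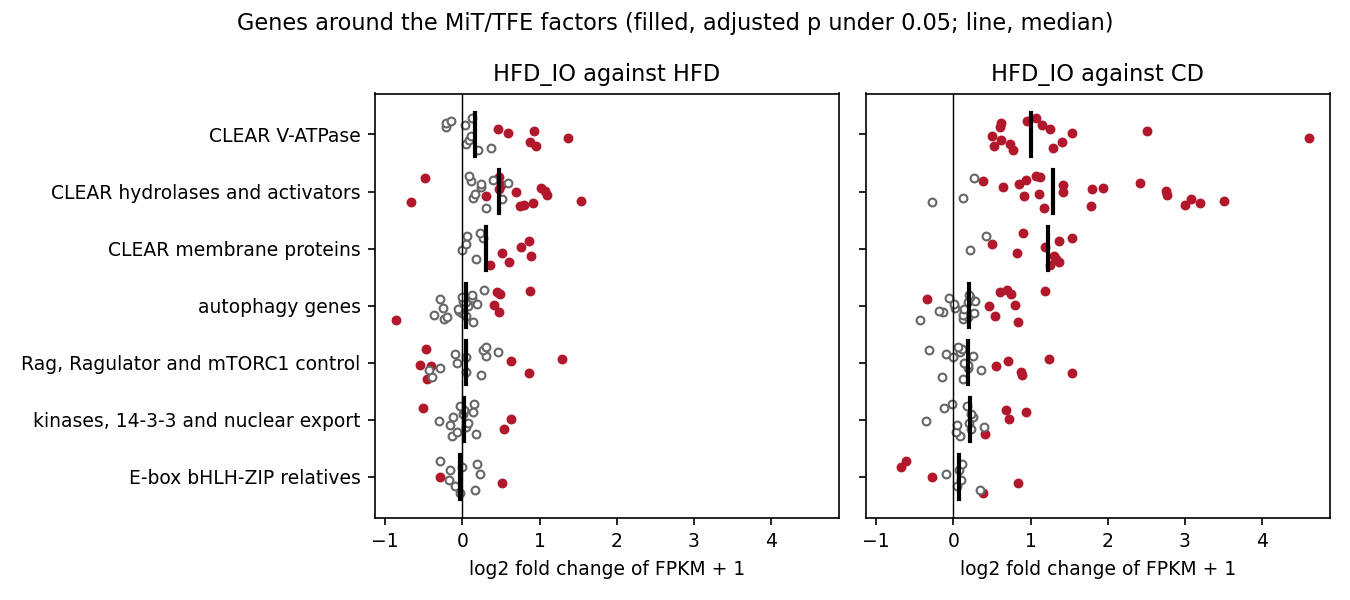
Change of each gene on the log2(FPKM + 1) scale in HFD_IO against HFD and in HFD_IO against CD, grouped by list, with the list's median as a line. The CLEAR lists lie mostly above 0, with a median over the 52 CLEAR genes of 0.37 in HFD_IO against HFD and 1.16 in HFD_IO against CD.

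By role, the proton pump had 16 genes tested, of which 6 rose in HFD_IO against HFD and 16 in HFD_IO against CD. These were 37.5% and 100%, beside 14.1% and 17.5% of all genes tested. Atp6v0d2, a subunit of macrophages and osteoclasts, was at 122, 94.5 and 54.9 FPKM in HFD_IO, 44.9, 41.2 and 18.5 FPKM in HFD and 3.06, 2.46 and 2.25 FPKM in CD. It rose by 1.37 in HFD_IO against HFD (adjusted p = 0.0214), which was lost without HFD_3 (adjusted p = 0.0531), HFD_IO_1 (adjusted p = 0.072) or HFD_IO_2 (adjusted p = 0.0645), and with no filter (adjusted p = 0.0596). Atp6v0a1 rose by 0.95 in that comparison (adjusted p = 0.0023), against a fall of the same gene in HFD against CD (-0.43, adjusted p = 0.0321) that was lost without any 1 of CD_2, CD_3, HFD_2 and HFD_3, with the length trend removed (adjusted p = 0.0878) and with no filter (adjusted p = 0.0576).

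Of 24 hydrolases and their activators, 12 rose and 2 fell in HFD_IO against HFD and 21 rose and 0 fell in HFD_IO against CD. The shares that rose were 50% and 87.5%, beside 14.1% and 17.5% of all genes tested. The 2 that fell were 8.33%, beside 14.5%. The 12 became 6 without HFD_3, 6 without HFD_IO_1 and 7 without HFD_IO_2. Ctsk, the collagen-cutting cathepsin and a MITF target in osteoclasts, was at 294, 235 and 229.7 FPKM in HFD_IO, 92.0, 85.6 and 81.4 FPKM in HFD and 20.3, 21.4 and 22.0 FPKM in CD. It rose by 1.53 in HFD_IO against HFD (adjusted p = 0.000316) and by 3.50 in HFD_IO against CD. Those that fell in HFD_IO against HFD were Ctsf, a cathepsin (-0.66, adjusted p = 0.0153), and Smpd1, the acid sphingomyelinase (-0.49, adjusted p = 0.0206), and both calls were lost without HFD_3. The Smpd1 call was also lost without HFD_2, HFD_IO_1 or HFD_IO_2 and under TPM (-0.34, adjusted p = 0.0588), and the Ctsf call with the length trend removed (-0.45, adjusted p = 0.0682). Both genes were named after their values were seen.

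Of 12 lysosomal membrane genes, 6 rose in HFD_IO against HFD and 10 in HFD_IO against CD. These were 50% and 83.3%, beside 14.1% and 17.5% of all genes tested. Clcn7, the chloride and proton exchanger, rose by 0.89 in HFD_IO against HFD (adjusted p = 0.00175) and Npc1, which exports cholesterol from lysosomes, by 0.86 (adjusted p = 0.0039). Of 24 autophagy genes, 5 rose and 1 fell in HFD_IO against HFD, and 8 rose and 1 fell in HFD_IO against CD. The shares that rose were 20.8% and 33.3%, beside 14.1% and 17.5% of all genes tested. In each, 4.17% fell, beside 14.5% and 15.0%. The 5 became 2 without HFD_2 and 3 without HFD_3, HFD_IO_2 or HFD_IO_3. Plekhm1, an adaptor for lysosome fusion, rose by 0.87 in HFD_IO against HFD (adjusted p = 0.00723). Sqstm1, the autophagy receptor p62, rose by 0.84 in HFD_IO against CD (adjusted p = 0.00164) and differed by 0.14 in HFD_IO against HFD (adjusted p = 0.482), or by 0.44 with quantile normalization (adjusted p = 0.0428).

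Gpnmb, a membrane glycoprotein driven by MITF and TFE3 in macrophages, had the highest mean level among 7 family targets listed together, in HFD_IO and HFD. In CD the mean of Hif1a was higher (17.8 against 16.1 FPKM). Of the 7, 6 were tested and 3 rose in HFD_IO against HFD, 5 in HFD_IO against CD and 2 in HFD against CD. These were 50%, 83.3% and 33.3%, beside 14.1%, 17.5% and 21.8% of all genes tested. Rragd, Flcn and Fnip2 are in this list and were also counted above among the Rag, Ragulator and mTORC1 genes. Gpnmb was at 797, 507 and 395 FPKM in HFD_IO, 291, 268 and 140.4 FPKM in HFD and 12.6, 16.5 and 19.3 FPKM in CD. It rose by 1.28 in HFD_IO against HFD (adjusted p = 0.0199), which was lost without HFD_3 (adjusted p = 0.0562) or HFD_IO_1 (adjusted p = 0.0632) and with no filter (adjusted p = 0.0554), and by 5.01 in HFD_IO against CD. Acp5, the tartrate-resistant acid phosphatase of osteoclasts, averaged 72.7 FPKM in HFD_IO, 60.4 FPKM in HFD and 15.1 FPKM in CD, and the difference with iron was 0.23 (adjusted p = 0.512).

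The promoters of 3 CLEAR genes and of Mcoln1, counted above among the calcium genes, show what the family's site looks like where it is present. Each line gives up to 40 bases around the match in RefSeq's GRCm38.p6 sequence on the gene's strand, with GTCACGTG or its complement in capitals. Ctsd encodes cathepsin D and its window is chr7:142388049-142388077 on the minus strand, Clcn7 is at chr17:25133358-25133397 on the plus strand, Mcoln1 at chr8:3500430-3500469 on the plus strand, and Cln3, which holds a longer palindrome, at chr7:126583336-126583375 on the minus strand.
Ctsd: tccccCACGTGACctgtatccagtcattc
Clcn7: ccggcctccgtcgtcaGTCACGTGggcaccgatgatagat
Mcoln1: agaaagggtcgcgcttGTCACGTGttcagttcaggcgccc
Cln3: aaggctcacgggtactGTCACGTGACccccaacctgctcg

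GTCACGTG was present in 13 of the 40 CLEAR genes with a promoter in RefSeq's table (32.5%) and in 4.73% of the 9813 tested genes that have one. The list is known in part from this motif, so the excess is not independent evidence. Of the 13 genes with it, 8 rose in HFD_IO against HFD with a median change of 0.50 and 13 rose in HFD_IO against CD with a median of 1.19. Of the 27 without it, 8 rose and 2 fell in HFD_IO against HFD with a median of 0.23, and 22 rose in HFD_IO against CD with a median of 1.07. In HFD against CD the order was the other way. There 11 of the 13 rose with a median of 0.68, and 20 of the 27 rose and 1 fell with a median of 0.76. Of all genes tested, 14.1%, 17.5% and 21.8% were called higher and 14.5%, 15.0% and 17.6% lower in these 3 comparisons. The difference between genes with and without the motif was not tested.

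Other E-box factors of the same structural class were counted as well. Of 11 relatives, 1 rose and 1 fell in HFD_IO against HFD (9.09% each, beside 14.1% and 14.5% of all genes). In HFD_IO against CD, 2 rose and 3 fell (18.2% and 27.3%, beside 17.5% and 15.0%). Myc rose by 0.84 in HFD_IO against CD (adjusted p = 0.000518), while Mlxip, a glucose-sensing factor, fell by 0.68 (adjusted p = 0.0174; 0.055 to 0.0656 without CD_2, CD_3, HFD_IO_1 or HFD_IO_2) and Srebf2, the factor for cholesterol synthesis genes, fell by 0.61 (adjusted p = 0.00909). With single libraries left out, the 1 that fell in HFD_IO against HFD became 0 without any 1 of CD_2, CD_3, HFD_1, HFD_2, HFD_3, HFD_IO_1 and HFD_IO_2. In HFD_IO against CD the 2 that rose became 1 without CD_3 or HFD_IO_2, and the 3 that fell became 1 at fewest, moving by over 1.5 times without CD_2, CD_3, HFD_IO_1 or HFD_IO_2.

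Genes with the most similar profile were found by the mean absolute difference between log2(FPKM + 1) values centred over the 9 libraries. For Mitf they were Rnf180 (0.0726), Atp2b1 (0.0751), Fam102b (0.0761), Spred1 (0.0797) and Mindy1 (0.0813). For Tfe3 they were Trim35 (0.0283), Plekhm2 (0.0394), Arfgef2 (0.0464), Washc2 (0.0553) and Gatad2a (0.0595). For Tfeb they included Gtf3a (0.0482), Pea15a (0.0507), Rnf220 (0.0584) and Lypla2 (0.0587). For Tfec they were Pnpla7 (0.0743), Slc17a5 (0.0840), Aph1c (0.0892), Ero1lb (0.0977) and Cd244a (0.104). None of the 4 members was among the nearest 5 of another.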

How the data were processed

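Per the labels' protocols, aortic RNA was turned into sequencing libraries with NEBNext reagents. The authors deposited 1 table of FPKM per gene and library with gene lengths; the submitters' processing notes name HISAT2 and the human build hg38, while the table lists 54532 mouse genes, of which GENCODE M21 holds 54409, 98.3% of them at identical GRCm38 positions. No source used here names the counter, its version or a strand setting; antisense reads may be included. FPKM times length gave whole reads within 0.05 of a read for 100% of values.

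Columns were assigned to groups by name. Genes with at least 1 FPKM in at least 3 libraries (13883) were tested as log2(FPKM + 1) with limma 3.58.1 in R 4.3.3, with 3 group means, a mean-variance trend and Benjamini-Hochberg adjustment over all of them per comparison. Such fold changes understate those of low genes. The threshold was 0.05. The step was tested on simulated data. Replicate pairs differed beyond counting noise in every group. The chi-square of reads per degree of freedom was 52.9 and 56.4 for CD_1 against CD_2 and CD_3. Between CD_2 and CD_3 it was 6.41. It was 26.2 to 55.0 between HFD libraries and 27.6 to 45.4 between HFD_IO libraries.

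The members and 19 gene lists were chosen with earlier results of these data known. Named genes are the members, 5 nearest profiles each, a chosen set (Flcn, Fnip2, Rragd, Mcoln1, Gpnmb, Sqstm1, Acp5, Zkscan3, Cd68, Kit and Ppargc1a, which was under the filter) and up to 4 per list with the largest called HFD_IO against CD change; some of these are not reported.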

Additional observations from a re-analysis of the deposited data

How the results depend on the processing

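Across 20 alternatives (19 for Tfec, which has no value with a filter of 5 FPKM), Mitf kept its call in both iron comparisons, Tfe3 in HFD_IO against HFD and Tfec in HFD_IO against CD. Leaving out each library gave 0.67 to 0.83 for Mitf and 0.45 to 0.57 for Tfe3 in HFD_IO against HFD. In HFD_IO against CD, Tfe3 was at 0.36 under TPM. Tfec in HFD_IO against HFD was 0.55 to 0.85 with single libraries left out. Tfec in HFD against CD passed with pseudocounts of 0.1 (1.18) and 0.01 (1.38), quantile normalization (0.54), no mean-variance trend (0.50) and voom (1.39), and ranged from 0.44 to 0.59 with a library left out. Tfeb in HFD against CD missed the threshold with no filter (0.38), 2 groups in the fit (0.38), TPM (0.032) and plain library totals (0.23), and ranged from 0.28 to 0.48 with a library left out. In HFD against CD, Mitf turned to -0.12 under TPM, and Tfe3 turned to -0.34 under TPM, -0.11 with plain totals, -0.072 without CD_1 and -0.036 without HFD_1. The cause was not tested.

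Under TPM the median of all genes moved to -0.30 in HFD against CD, 0.14 in HFD_IO against HFD and -0.23 in HFD_IO against CD, with 1018 genes higher and 4948 lower, 2373 and 1160, and 1528 and 3800, against 3030 and 2440, 1956 and 2013, and 2427 and 2089. Relative to these medians, Tfe3 in HFD_IO against CD was at 0.59. With plain totals, HFD against CD had 1866 higher and 3363 lower. With a filter of 5 FPKM, 1332 were lower in HFD against CD, 1288 higher in HFD_IO against HFD and 1367 lower in HFD_IO against CD. HFD_IO against HFD had 1182 higher and 1093 lower without HFD_3, 1218 and 1293 without HFD_IO_2, and 1237 lower without HFD_IO_1. HFD_IO against CD had 1260 lower without HFD_IO_2. Under TPM, 27 CLEAR genes rose in HFD against CD.

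Among other genes, signs turned under TPM for Flcn (-0.16 in HFD against CD, 0.081 in HFD_IO against HFD, -0.081 in HFD_IO against CD), Mcoln1 in HFD against CD (-0.018) and Gaa in HFD_IO against CD (-0.11). Gaa also turned without CD_1, in a range of -0.14 to 0.25 with single libraries left out. Fnip2 in HFD against CD turned without CD_2 (0.018), without HFD_3 (0.049) and with the length trend removed (0.10), in a range of -0.13 to 0.049 with single libraries left out. Voom, plain totals and removal of the length trend were chosen after seeing the data. The 2 planned count models on recovered reads were not run. No paired analysis was possible because the sample titles number the aortas 1 to 9 across the groups and the column numbers are not tied to those titles. Counting error limits Tfec most, with 26 to 50 reads per CD library.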
